A study of Mus musculus with 18 samples.

Results

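The 5 loci 4930571K23Rik, 1700016P04Rik, Gm10501, 1700095K22Rik and Wbscr25 are abundant transcripts, listed as noncoding, of the mouse testis. They were taken by symbol from a table of 13218 loci measured in germ cells of ICR mice, and were chosen by their rST levels: high in replicates 2 and 3 of that label and near 0 in replicate 1. The rST values are therefore given as a description and carry no test. The cells were separated by size, through sedimentation, into 6 labelled types with 3 libraries each. By age, the priSG-A cells came from mice 6 days after birth, the priSG-B cells from mice of 9 days, plpSC from 14 days, pacSC from 21 days, rST from 35 days and elST from 56 days. The labels do not spell out the short names, in which SG is commonly read as spermatogonia, SC as spermatocytes and ST as spermatids. No treatment or mutation is given for any type, and no label says whether the 3 libraries came from separate animals, while the series text speaks of duplicates, so p-values measure only how these libraries differ among themselves, and that may be technical.

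Germ cells of the testis divide as spermatogonia, pass through meiosis as spermatocytes and then reshape into sperm as spermatids. Pachytene spermatocytes and round spermatids transcribe an unusually broad share of the genome, long noncoding RNA included, and transcription stops as elongating spermatids pack their DNA with transition proteins and protamines. 3 of the 5 loci carry names of RIKEN clones, from cDNA libraries of adult mouse testis. No function of these 5 RNAs is stated here.

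All positions are on mm10 (GRCm38) and match the GENCODE M21 annotation. 4930571K23Rik (chromosome 7, 125368861 to 125371013, plus strand) is a lincRNA of 1 exon with transcripts of 2153 and 2052 bases. RefSeq lists the same interval as protein coding, so its place among noncoding loci depends on the annotation. 1700016P04Rik (chromosome 6, 13413337 to 13415996, plus strand) is a lincRNA of 2 exons and 429 bases. 1700095K22Rik (chromosome 7, 3981150 to 3982877, plus strand) is a lincRNA of 2 exons and only 282 bases. No annotated gene overlaps these 3. Their nearest protein-coding genes lie 73663 bp away (Kdm8, a Jumonji-family enzyme), 164691 bp away (Tmem168) and 20525 bp away (Lair1, an inhibitory receptor of leukocytes).

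Gm10501 and Wbscr25 are annotated as antisense. Gm10501 (chromosome 17, 34976899 to 34981788, minus strand) has 2 exons and 2200 bases, of which 1778 bases (80.8%) lie on exons of Hspa1l, which runs the other way. Hspa1l encodes the HSP70 family member known in the mouse for its expression in spermatids. Gm10501 starts 74 bp from Lsm2, a gene of the LSm ring that binds U6 RNA. Wbscr25 (chromosome 5, 134987433 to 135001350, minus strand), named after the Williams-Beuren syndrome region, has up to 5 exons. It shares 40 of its 2118 exon bases (1.89%) with Cldn3, a tight junction protein gene on the other strand. The library kit does not mark strand, so reads of Gm10501 on the shared bases could not be told from reads of Hspa1l, and the same holds for the 40 bases of Wbscr25. Hspa1l, Lsm2 and Cldn3 have no rows in the table used here.

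**Figure D1:**
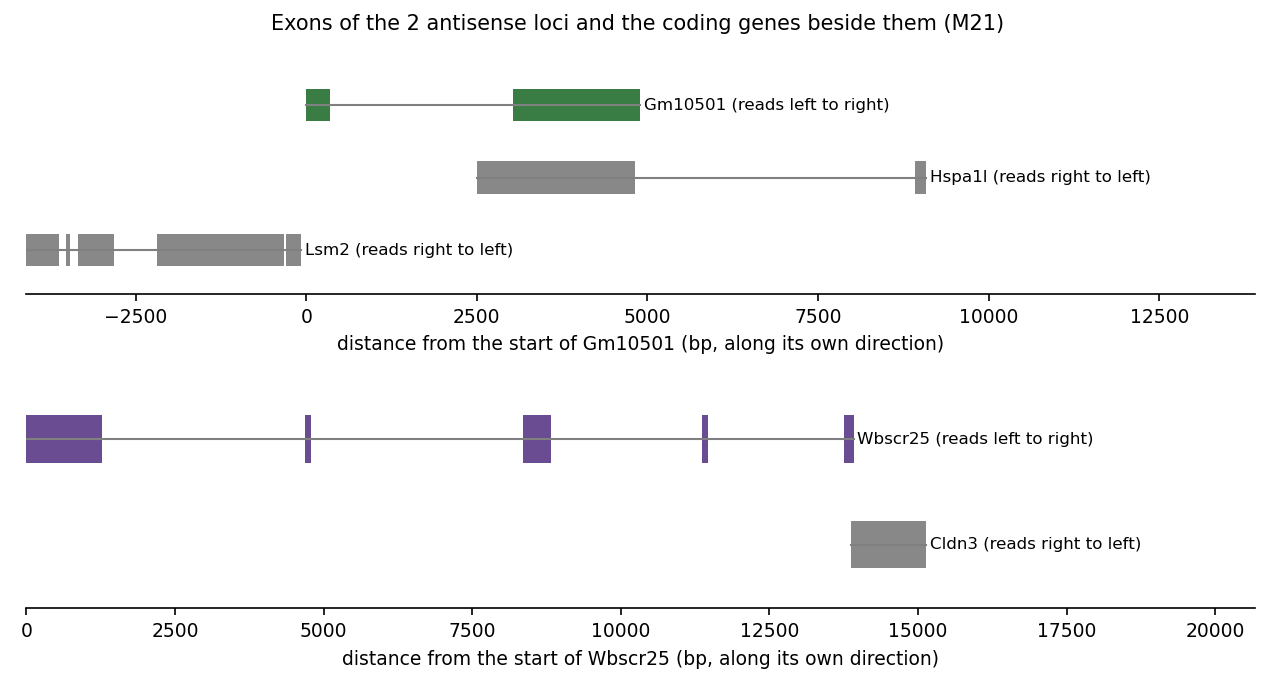
Exons (boxes) and introns (lines) of Gm10501 and Wbscr25 in colour and of Hspa1l, Lsm2 and Cldn3 in grey, with all annotated transcripts of a gene merged, drawn by distance in bp from the start of each antisense locus. The second exon of Gm10501 lies almost wholly on the large Hspa1l exon (1778 shared bases), whereas Wbscr25 meets Cldn3 only at its end (40 shared bases).

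RefSeq (GRCm38.p6) promoter windows, from 250 bases before to 50 after the start, were matched for 3 of the 5 loci, and all 3 are shown. Gm10501 and Wbscr25 had no window. Capitals mark matches to AACNG, the core of the MYB motif. The windows are chr7:125368611-125368910, chr6:13413087-13413386 and chr7:3980860-3981159, all on the plus strand.
4930571K23Rik: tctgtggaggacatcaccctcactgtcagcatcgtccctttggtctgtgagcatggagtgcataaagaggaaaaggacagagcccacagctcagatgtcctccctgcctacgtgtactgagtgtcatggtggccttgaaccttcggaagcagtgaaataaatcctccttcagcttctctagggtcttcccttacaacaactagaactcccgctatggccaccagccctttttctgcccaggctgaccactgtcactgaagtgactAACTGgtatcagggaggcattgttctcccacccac
1700016P04Rik: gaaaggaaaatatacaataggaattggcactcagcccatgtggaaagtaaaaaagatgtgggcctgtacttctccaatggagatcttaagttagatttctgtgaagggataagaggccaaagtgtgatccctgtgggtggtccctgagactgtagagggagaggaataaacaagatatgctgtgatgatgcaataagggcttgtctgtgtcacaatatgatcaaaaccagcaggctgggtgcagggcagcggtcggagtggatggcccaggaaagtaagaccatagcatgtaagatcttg
1700095K22Rik: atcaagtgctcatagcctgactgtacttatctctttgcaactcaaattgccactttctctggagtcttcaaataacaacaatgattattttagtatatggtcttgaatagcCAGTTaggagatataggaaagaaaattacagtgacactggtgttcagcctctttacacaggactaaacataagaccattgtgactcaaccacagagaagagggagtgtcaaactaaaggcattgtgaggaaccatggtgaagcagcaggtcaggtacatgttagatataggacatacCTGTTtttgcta

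The windows hold fewer CpG pairs than the median window. That of 4930571K23Rik holds 4 CpG pairs, that of 1700016P04Rik holds 2 and that of 1700095K22Rik holds 0, against a median of 7 over the 32851 windows of the table. Such counts are common, as 23.3% of all windows hold at most 2. On both strands AACNG matched 1 time in 4930571K23Rik, 0 times in 1700016P04Rik and 2 times in 1700095K22Rik, while 80.3% of all windows hold it. None of the 3 windows held TGACGTCA (the cAMP response element, in 1.79% of all windows), TGACG (the shorter form inside it, 20.8%), TATAAA (the TATA box, 13.6%) or GTTNCC (from the RFX motif, 45.3%). A missing match says only that these letters are not in the window.

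The last 50 bases of the longest M21 transcript are shown for 3 of the loci, because the kit named in the labels, TruSeq RNA, is designed to select polyadenylated RNA. Capitals mark AATAAA or ATTAAA, the common signals for cleavage and polyadenylation.
1700016P04Rik: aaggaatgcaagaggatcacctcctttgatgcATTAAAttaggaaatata
1700095K22Rik: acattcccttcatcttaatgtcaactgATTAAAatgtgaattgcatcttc
Gm10501: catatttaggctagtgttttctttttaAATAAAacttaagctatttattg

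The signal begins 18 bases from the end in 1700016P04Rik and 23 bases from the end in both 1700095K22Rik and Gm10501, and neither form lies in the last 50 bases of Wbscr25. The 2153-base transcript of 4930571K23Rik also has AATAAA, 30 bases from its end. Reading frames from an ATG to a stop were compared as well. The longest had 79 codons in 4930571K23Rik, 69 in 1700016P04Rik, 23 in 1700095K22Rik and 101 in Gm10501, against a median of 63 codons over 8813 lincRNA and antisense genes. Wbscr25 stood out with 270 codons, a length reached by 0.499% of those genes. Longer transcripts hold longer frames by their length alone, and no protein was measured.

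Levels are in FPKM, that is, fragments scaled to the length of the transcript and to library size, and the inferred depth was 31701015 to 92339566 fragments per library. Labels and profiles did not go together in every library. In the whole table the closest library of priSG-A replicate 3 was pacSC replicate 1 (r = 0.800 across loci, the lowest such value), and priSG-A replicates 1 and 2 were each closest to the plpSC library of the same number. The closest library of plpSC replicate 3 was elST replicate 2, that of pacSC replicate 3 was rST replicate 3, that of elST replicate 3 was pacSC replicate 2, and that of rST replicate 1 was elST replicate 1. The noncoding locus 1700027A15Rik, whose span overlaps the transition protein gene Tnp1, stood at 4539 and 3175 FPKM in rST replicates 2 and 3 and at 0 in rST replicate 1. It also stood at 874 FPKM in plpSC replicate 3 and at 1195 FPKM in pacSC replicate 3, although these labels precede the spermatid stage. None of the 26 coding marker genes looked for is in the table. H19, Meg3, Rian and Mirg, noncoding genes used as fetal and somatic markers, summed to 17.0 FPKM in rST replicate 1 and to 8.91 and 9.77 FPKM in rST replicates 2 and 3. They summed to 34.0 FPKM in elST replicate 1 and to 9.10 and 4.63 FPKM in elST replicates 2 and 3. The 4 genes did not run alike. In rST replicates 1, 2 and 3, H19 stood at 6.44, 0.286 and 0.810 FPKM and Rian at 7.31, 2.96 and 2.95 FPKM, while Meg3 stood at 2.99, 2.47 and 2.07 FPKM and Mirg went the other way, at 0.209, 3.19 and 3.94 FPKM. Mirg was also lowest in replicate 1 among the elST libraries, at 0.647, 2.15 and 1.08 FPKM. Their part in the levels below was not tested. In bulk samples, fewer cells of a type and less RNA per cell cannot be told apart.

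4930571K23Rik was the most abundant of the 5 loci in 6 of the 9 libraries in which all 5 reached 1 FPKM. It stood, in FPKM, at 0, 0 and 10.5 in the 3 priSG-A libraries, at 0.0152, 0.0478 and 0.104 in priSG-B, at 0, 0.0229 and 448 in plpSC, at 33.3, 34.7 and 799.8 in pacSC, at 0.0142, 1745 and 1879.9 in rST, and at 0.385, 411 and 34.0 in elST. Every type but priSG-B thus holds a library far from the others, and the ranges of plpSC, pacSC, rST and elST overlap. In rST replicates 2 and 3 it ranked 6 and 4 among the 13218 loci of the library, in pacSC replicate 3 it ranked 7, and in pacSC replicates 1 and 2 it ranked 216 and 219. The value of 0.0142 FPKM in rST replicate 1 corresponds to about 1.06 fragments, and that in rST replicate 2 to about 165500.

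1700016P04Rik, the 429-base lincRNA, ran high and low in the same libraries. Its levels in FPKM were 0, 0 and 4.96 in priSG-A, 0, 0.0558 and 0.120 in priSG-B, 0, 0 and 249.8 in plpSC, 47.8, 60.5 and 448 in pacSC, 0, 879 and 875 in rST, and 0.231, 258 and 47.1 in elST. In pacSC replicates 1 and 2 and elST replicate 3 it stood above 4930571K23Rik, and in rST replicates 2 and 3 it stood below it. It is listed at 0 in 6 libraries. In rST replicate 1, where it is listed at 0, 3 fragments would give 0.356 FPKM, so a count of 0 there allows a level of up to 0.356 FPKM. Single fragments were listed in other libraries, such as the 0.0558 FPKM of priSG-B replicate 2.

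1700095K22Rik, the 282-base lincRNA, has the fewest fragments behind its values. It stood, in FPKM, at 0, 0 and 6.23 in priSG-A, at 0, 0 and 0.223 in priSG-B, at 0, 0.275 and 169 in plpSC, at 35.1, 40.5 and 243 in pacSC, at 0, 935 and 599.8 in rST, and at 0, 169.7 and 31.1 in elST. Its rST replicate 2 level was 1.56 times that of replicate 3, whereas this ratio was 0.617 to 1.00 for the other 4 loci. The RNA is barely longer than the inferred fragments of 200 to 270 bp. The divisor of FPKM is not given and was taken as the length left after the inferred fragment. That length was 13 to 23 bases in pacSC replicates 1 and 2 and elST replicate 3 and 43 to 83 bases in the other libraries. On this basis the 40.5 FPKM of pacSC replicate 2 corresponds to about 36.8 fragments, whereas 599.8 FPKM in rST replicate 3 corresponds to about 1615.

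Gm10501, antisense to Hspa1l, stood at 0.978 FPKM or more in every library. It stood, in FPKM, at 1.42, 1.99 and 8.01 in priSG-A, at 0.981, 1.10 and 0.978 in priSG-B, at 0.993, 1.54 and 289 in plpSC, at 16.9, 19.3 and 544 in pacSC, at 1.41, 779 and 1033 in rST, and at 1.87, 280.5 and 18.6 in elST. The low level near 1 FPKM was thus measured in every priSG-B library and rests on about 140.4 to 200.5 fragments, so it is above counting error. Reads of Hspa1l RNA would be counted in the same place, and their part was not tested.

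Wbscr25 had the largest ratios between libraries with high and intermediate levels. It stood, in FPKM, at 0.117, 0.0378 and 3.93 in priSG-A, at 0.0225, 0.0424 and 0.0513 in priSG-B, at 0.0460, 0.0340 and 143 in plpSC, at 8.33, 8.43 and 537 in pacSC, at 0.0657, 658 and 1067 in rST, and at 0.122, 157 and 9.13 in elST. Its rST replicate 3 level was 128 times that of pacSC replicate 1, against 17.1 to 61.3 times for the other 4 loci. Within the pacSC label its replicate 3 was 64.4 times its replicate 1, against 6.92 to 32.3 times for the others.

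**Figure D2:**
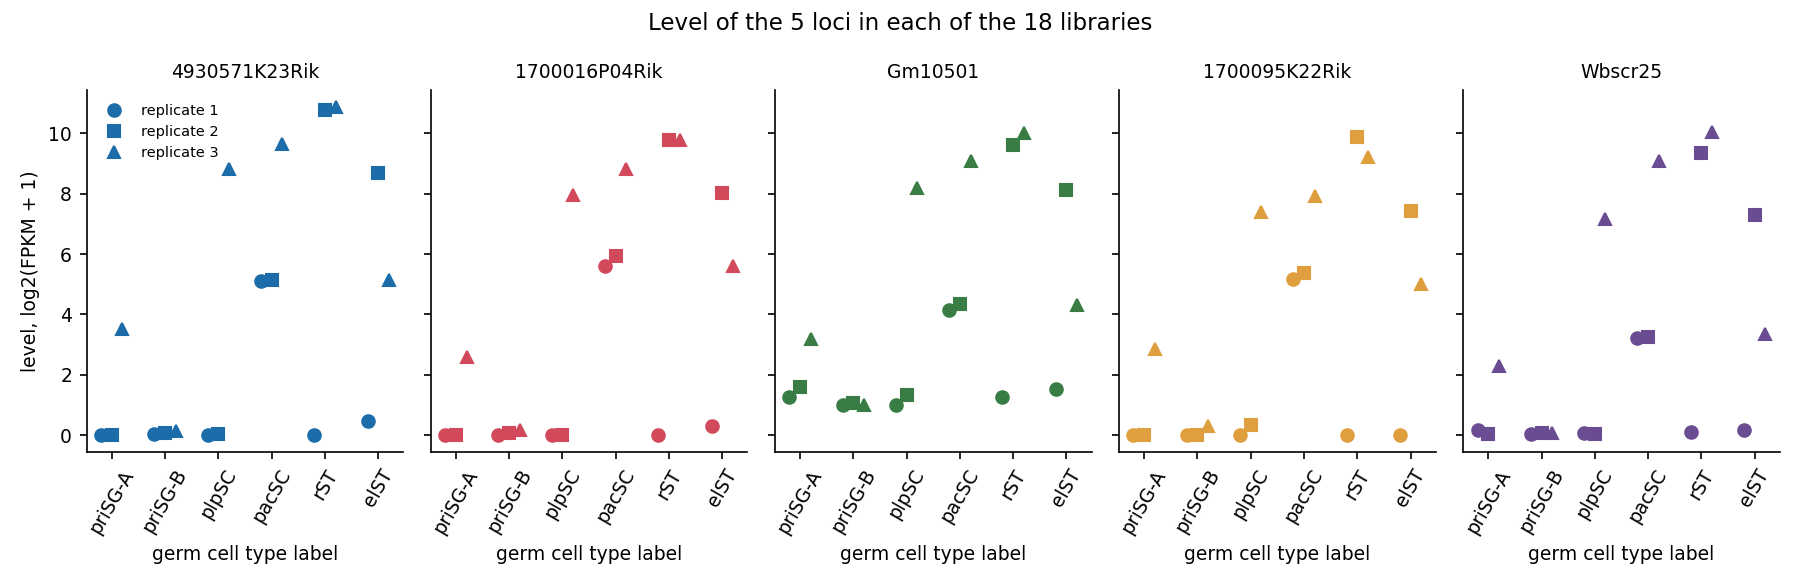
Level of each locus on the log2(FPKM + 1) scale (vertical axis) by type label in order of age (horizontal axis), with a point per library and a symbol per replicate number. rST replicates 2 and 3 are highest for all 5 loci, plpSC replicate 3, pacSC replicate 3 and elST replicate 2 follow, and rST replicate 1 and elST replicate 1 lie with the early types.

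By the median over 3 libraries rST came first, at 599.8 to 1745 FPKM, which the choice of the loci by rST fixed. Of the types not used in the choice, elST (9.13 to 47.1 FPKM) and pacSC (8.43 to 60.5 FPKM) had the higher medians. The elST median was above the pacSC median for Wbscr25, at 9.13 against 8.43 FPKM, and below it for the other 4 loci. Neighbours in that order were not separated by their spread. The elST mean of 4930571K23Rik was 148 ± 228 FPKM and its pacSC mean was 289 ± 442 FPKM (SD, n = 3 each), and the plpSC mean, raised by replicate 3 alone, was 149 ± 259 FPKM. Among the 3 types with low medians, priSG-A, priSG-B and plpSC, the medians ran from 0 to 1.99 FPKM.

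Together the 5 loci made up 5.50% and 8.39% of the summed FPKM of all loci in rST replicates 2 and 3, 2.95% in pacSC replicate 3, 2.39% in elST replicate 2 and 1.53% in plpSC replicate 3. In pacSC replicates 1 and 2 and elST replicate 3 the share was 0.128 to 0.138%, in priSG-A replicate 3 it was 0.0345%, and in the other libraries, rST replicate 1 among them, it was at most 0.00409%. The rule that picked the loci named no numeric limit. With rST replicate 1 under 2 FPKM and replicates 2 and 3 both at 500 FPKM or more, 13 loci are found, and these 5 are among them. The lower of the 2 high rST values ran from 599.8 FPKM (1700095K22Rik) to 1745 FPKM (4930571K23Rik) in the members. Among the 8 other loci, 1700027A15Rik at 3175 FPKM and 4930570D08Rik at 2047 FPKM lie above the highest member. 1700009J07Rik at 621 FPKM and 1700031P21Rik at 510 FPKM lie on either side of the lowest member.

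Pairs of libraries with different labels held nearly the same levels. The ratio of plpSC replicate 3 to elST replicate 2 was 1.09 for 4930571K23Rik, 0.969 for 1700016P04Rik, 1.03 for Gm10501, 0.993 for 1700095K22Rik and 0.912 for Wbscr25. The ratio of elST replicate 3 to pacSC replicate 1 was 0.887 to 1.11 over the 5 loci. Within the elST label, by contrast, replicate 2 exceeded replicate 3 by 5.45 to 17.2 times. These ratios compare single libraries and have no replicate check.

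The balance between the loci was not constant. In pacSC replicates 1 and 2 and elST replicate 3, 1700016P04Rik stood at 5.74, 7.18 and 5.16 times the FPKM of Wbscr25, and in the 6 other libraries with all loci above 1 FPKM the ratio was 0.820 to 1.75. These 3 libraries are those with the longest fragments, 260 to 270 bp. As fragments, computed back from FPKM with the inferred lengths and so approximate for this short RNA, the ratio was 0.471 to 0.636 in the 3 libraries and 0.0986 to 0.206 in the 6. The part of fragment length in the balance was not tested. 4930571K23Rik, similar to Wbscr25 in length, stood at 3.73 to 4.12 times Wbscr25 in the 3 libraries and at 1.49 to 3.14 times in the 6. Gm10501 followed Wbscr25 more closely, at 0.968 to 2.29 times over all 9. In the 3 libraries AY036118, a locus derived from ribosomal RNA, stood at 7.25 to 7.44 FPKM, against 1998 to 13911 FPKM in the 6. Its part in the balance was not tested.

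**Figure D3:**
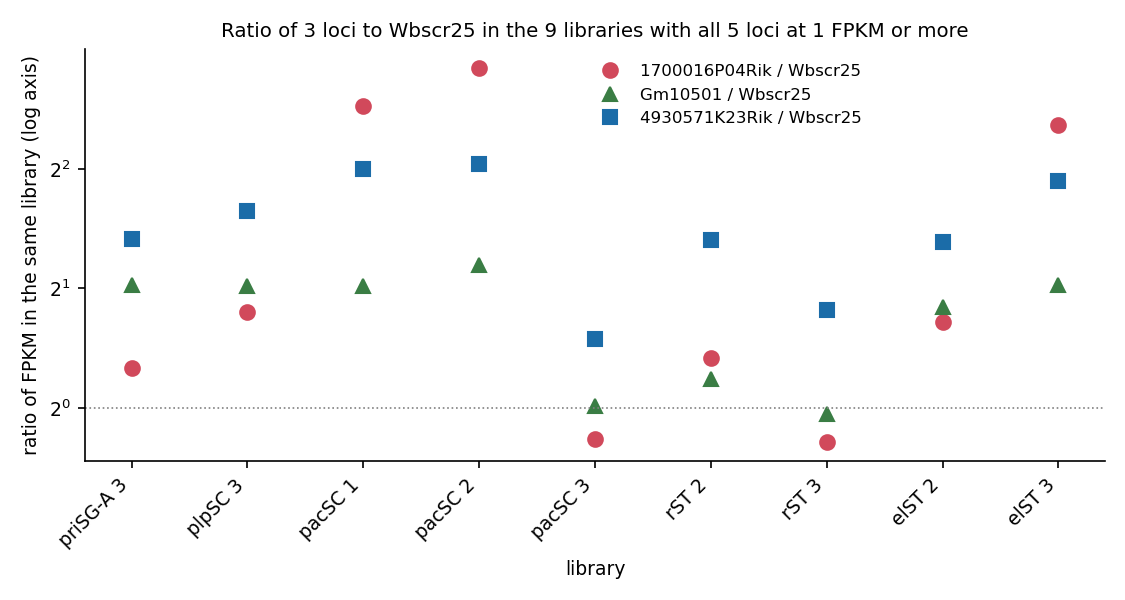
Ratio of the FPKM of 1700016P04Rik, Gm10501 and 4930571K23Rik to that of Wbscr25 within a library (vertical log axis), for the 9 libraries in which all 5 loci reached 1 FPKM (horizontal axis, in order of age). The 1700016P04Rik ratio is 5.16 to 7.18 in pacSC replicates 1 and 2 and elST replicate 3 and at most 1.75 elsewhere, while the Gm10501 ratio stays between 0.968 and 2.29.

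Likeness of profiles was measured as the mean absolute difference of log2(FPKM + 1) over the 18 libraries, with each locus set to its own mean, so that 0 means the same shape. Many libraries share low values, which makes all such differences small, and the 18 include the rST libraries whose values chose the loci. Among the 5, Gm10501 and Wbscr25 were closest (0.287), followed by 1700016P04Rik and 1700095K22Rik (0.314), and the pair farthest apart was 4930571K23Rik and Gm10501 (0.943). Within the 5, the 2 antisense loci thus paired with each other, and so did the 2 spliced lincRNAs. These lincRNAs are also the shortest of the 5, at 429 and 282 bases, and the part of length was not tested. Outside the 5, however, the lincRNA 1700009J07Rik (0.263) was closer to Wbscr25 than Gm10501 was. The antisense locus Gm15756 (0.290) was closer to 1700095K22Rik than 1700016P04Rik was.

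Among the 4117 loci compared, the 3 closest outside the 5 were taken for each. For Gm10501 they were the antisense loci Gm4665 (0.177), AI507597 (0.194) and Gm16325 (0.281), each closer than Wbscr25. For Wbscr25 they were AI507597 (0.220), the lincRNA 1700009J07Rik (0.263) and Gm4665 (0.341). For 1700016P04Rik they were the lincRNAs 1700052I22Rik (0.257), 1700003E24Rik (0.374) and BC061195 (0.409), and for 1700095K22Rik the antisense locus Gm15756 (0.290) and the lincRNAs Gm14773 (0.378) and 1700003E24Rik (0.393). For 4930571K23Rik they were 1700052I22Rik (0.485), the Tnp1-overlapping 1700027A15Rik (0.486) and 1700031P21Rik (0.603). As an example of the scale, the levels of 1700052I22Rik were 48.8 FPKM in pacSC replicate 1, 60.2 in pacSC replicate 2, 447 in rST replicate 2 and 843 in rST replicate 3.

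The types not used to choose the loci were compared with limma on 15 libraries, without rST. All 5 loci passed the filter of 1 FPKM in at least 3 of these libraries, as did 3922 loci in all. Values were log2(FPKM + 1), so differences are on that scale and understate the change of low loci. Each type was set against the one before it, which left elST against pacSC as the step into the spermatid labels.

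For elST against pacSC, no locus of the 5 passed (0 of 5 by limma at an adjusted p under 0.05, 0 at an unadjusted p under 0.05), and the share called over all 3922 loci was 0% (18 at an unadjusted p under 0.05). The differences ran from -2.15 ± 2.14 (SE) for 1700016P04Rik to -1.21 ± 1.99 for Gm10501, while the median over all loci was -0.27. For 4930571K23Rik the difference was -1.87 with a 95% interval of -7.10 to 3.36 (limma adjusted p = 0.908), which leaves room for large changes either way. The sign rested on elST replicate 1. Without it the differences were 0.015 to 0.35, and without pacSC replicate 3 those of Gm10501 and Wbscr25 were 0.40 and 0.37. Among libraries with AY036118 below 100 FPKM, 4930571K23Rik stood at 34.0 FPKM in the elST library and at 33.3 and 34.7 FPKM in the 2 pacSC libraries, and among the others the elST libraries held 0.385 and 411 FPKM and the pacSC library 799.8 FPKM.

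For pacSC against plpSC, again no locus passed (0 of 5 by limma, 0 at an unadjusted p under 0.05 in the unpaired fit), and 0% of all loci were called, with 711 at an unadjusted p under 0.05. The differences were all positive, from 2.36 ± 1.99 for Gm10501 to 4.13 ± 2.14 for 1700016P04Rik, and the median over all loci was 0.62. The interval of 1700016P04Rik ran from -0.51 to 8.77 (limma adjusted p = 0.255). Libraries with the same replicate number deviated together in these types, but replicate 3 stood apart in both, so this does not show a pairing. Matched by number, pacSC exceeded plpSC in all 3 pairs for all 5 loci, by 1.44 to 3.76 times in the pair of replicate 3. The share of all loci with this order was not computed, and the labels pair no libraries. With the replicate block 2 of the 5 had an unadjusted p under 0.05, as did 1051 loci in all, and in the 6 libraries alone 4 of the 5 did, as did 564 loci. None passed after adjustment (limma adjusted p of 0.183 to 0.310 with the block and 0.263 in the 6 libraries). In plpSC the libraries split, with replicates 1 and 2 at or near 0 and replicate 3 above every level in pacSC replicates 1 and 2. Replicate 3 is the only plpSC library in which the 5 loci were high, so leaving it out is not independent of their levels. Without plpSC replicate 3 all 5 passed. The differences were then 6.62 for 4930571K23Rik (limma adjusted p = 0.0251), 6.79 for 1700016P04Rik (limma adjusted p = 0.0222), 4.69 for Gm10501 (limma adjusted p = 0.0400), 5.99 for 1700095K22Rik (limma adjusted p = 0.0223) and 5.12 for Wbscr25 (limma adjusted p = 0.0450). In the same fit 2101 of the 3922 loci passed. The summed H19, Meg3, Rian and Mirg levels moved with this call, at 6.08, 5.60 and 12.7 FPKM in pacSC. They were 35.8 and 49.2 FPKM in plpSC replicates 1 and 2 and 5.32 FPKM in the omitted plpSC replicate 3. Mirg alone went the other way, at 1.61, 1.11 and 4.36 FPKM in pacSC and 0.563 and 0.493 FPKM in plpSC replicates 1 and 2. The part of these genes was not tested. A further fit left out 4 libraries that earlier results on the whole table had set apart from their type (priSG-A replicate 3, plpSC replicate 3, pacSC replicate 3 and elST replicate 1). The members also depart from their type there, so this choice is not independent of their levels, and elST replicates 2 and 3 were kept although closest to other labels. The 5 loci passed in it, with differences of 3.08 to 5.78 (limma adjusted p of 5.08e-05 to 0.0181), as did 2847 loci in all. It compares pacSC libraries with AY036118 at 7.44 and 7.25 FPKM with plpSC libraries at 7526 and 2307 FPKM, so AY036118 and type cannot be told apart in it. With a term for AY036118 and all 15 libraries, the differences were 4.03 to 5.01 and none of the 5 passed (limma adjusted p = 0.510, 0 at an unadjusted p under 0.05). All 3 plpSC libraries and pacSC replicate 3 have AY036118 above 100 FPKM, which leaves 1 pacSC library for a comparison within that range. That library held 799.8 FPKM of 4930571K23Rik, and the plpSC libraries held 0, 0.0229 and 448 FPKM.

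For plpSC against priSG-B, no locus of the 5 passed (0 of 5 by limma after adjustment, against 1.22% of all loci). At an unadjusted p under 0.05 by limma, 0 of the 5 and 337 of all 3922 loci were found. The differences of the 5 were 2.37 to 2.87 with standard errors of 1.99 to 2.41. Without plpSC replicate 3 the differences of 4930571K23Rik and 1700016P04Rik were -0.06 and -0.08. For priSG-B against priSG-A, no locus of the 5 passed either (0 of 5 by limma after adjustment, against 0.637% of all loci), with differences of -1.10 to -0.78. At an unadjusted p under 0.05 by limma, 0 of the 5 and 339 of all 3922 loci were found. The 3 priSG-B values of Gm10501 lay below all 3 priSG-A values, as they did for 17.9% of all loci. Without priSG-A replicate 3 the difference of 4930571K23Rik was 0.08. All priSG-B libraries have AY036118 below 100 FPKM and all priSG-A and plpSC libraries above it, so neither comparison could be made within a range of AY036118. With a term for AY036118 in the fit, the difference of Gm10501 was -0.19 for plpSC against priSG-B and 1.69 for priSG-B against priSG-A, and no locus of the 5 passed by limma.

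**Figure D4:**
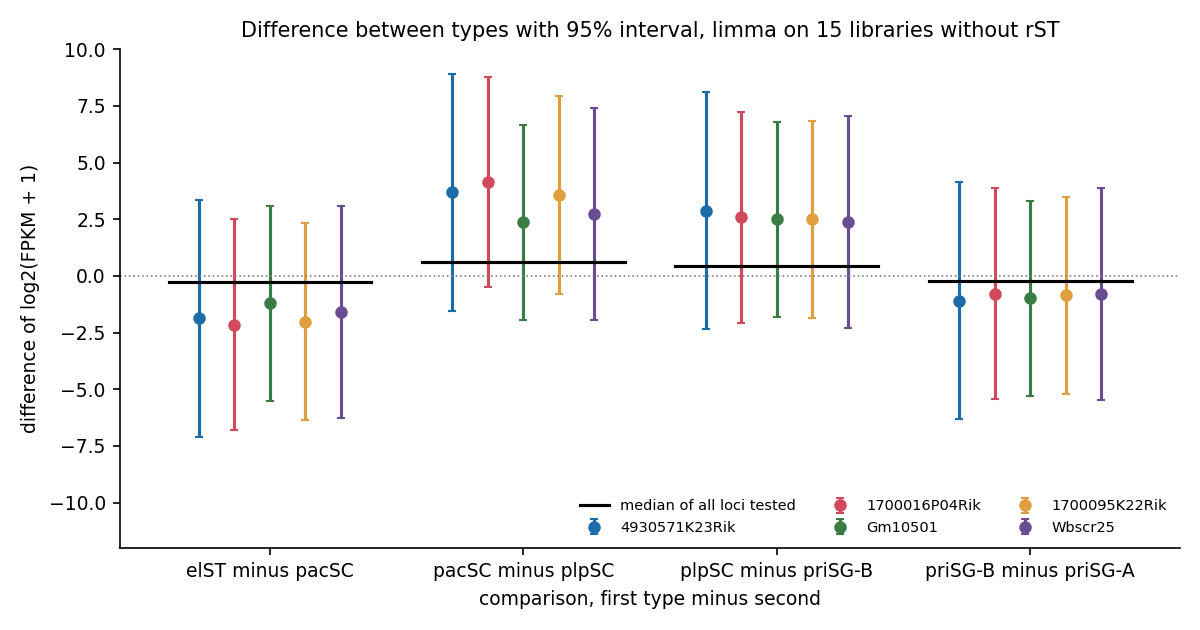
Difference of log2(FPKM + 1) between types (vertical axis) for the 5 loci in 4 comparisons (horizontal axis), each the first-named type minus the second, with limma 95% intervals from 15 libraries and the median of all 3922 loci tested as a black line. Every interval includes 0, and the differences for pacSC minus plpSC are the largest, at 2.36 to 4.13.

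A wider list gives the setting. Of the 1076 loci named after RIKEN testis clones, 791 passed the filter, 3 of these 5 among them. In elST against pacSC, 0 rose and 0 fell by limma, 2 had an unadjusted p under 0.05, and the median difference was -0.66, against -0.27 over all loci. In pacSC against plpSC, 0 rose and 0 fell, 189 had an unadjusted p under 0.05, and the median was 1.34, against 0.62. In plpSC against priSG-B 1 rose and 1 fell, with a median of 0.85 against 0.45, and in priSG-B against priSG-A 1 rose and 1 fell, with a median of -0.34 against -0.22. Of 4 noncoding genes named for spermatogenesis, Tug1, 1700027A15Rik and Gm2044 are in the table. Within rST, whose values chose the 5 loci, replicates 1, 2 and 3 held 34.5, 18.6 and 15.7 FPKM of Tug1, whose loss causes male infertility in mice, and 7.01, 0.175 and 0.0822 FPKM of Gm2044. 1700027A15Rik, given above, was instead high in replicates 2 and 3, like the 5 loci. In the priSG-A libraries Tug1 stood at 25.4, 33.0 and 31.0 FPKM, so that replicate 3, where the 5 loci were highest, lay between the other libraries.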

How the data were processed

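The authors deposited 1 table of FPKM values for 13218 loci and 18 libraries. HISAT2, StringTie and mm10 are named, with no versions, per the submitters' processing notes. For annotation, strand setting, filters and the FPKM denominator the entry is: not given in the sources used here. Depth and fragment length were inferred from FPKM steps of 3336 single-exon genes (97.9 to 99.2% of low values whole within 0.02), and fragments behind a level were computed from the longest transcript, approximate for short transcripts. Floors (3 fragments) cover counting error only, whereas the limma intervals rest on the spread among libraries. Loci with 1 FPKM or more in at least 3 of the 15 libraries without rST were tested as log2(FPKM + 1) with limma 3.58.1 in R 4.3.3 (trend, robust, 1 coefficient per type, two-sided, Benjamini-Hochberg over all loci). Both steps were first tested on simulated data. With 200 loci raised, limma recovered 40 to 52% of those raised by 2 and 84 to 90% of those raised by 4, in log2. It made 3 to 12 false calls per comparison. These shares are over loci of all spreads, not over the 5 loci. The depth was recovered within 0.301%, on counts drawn with the same length model, so the FPKM denominator was not checked. pacSC and plpSC libraries with the same replicate number deviated together (r across loci 0.317, 0.326 and 0.357). Replicate 3 stood apart in both types, and correlations between libraries of different number were not computed, so these values do not show a pairing. The labels give none. A replicate block changed no call of the 5 loci. Alternatives were a pseudocount of 0.1, other filters, quantile normalization, limma without trend, other sets of libraries and a term for AY036118. The named loci are the 5 members and the 3 loci most like each. The members and lists were chosen with earlier results of these data known. Python 3.11.15, numpy 2.4.6, pandas 2.3.3 and matplotlib 3.10.9 were used.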

Additional observations from a re-analysis of the deposited data

How the results depend on the processing

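No member passed by limma in any comparison under the other pseudocount, filters, normalization and sets of 6 libraries, and each exception is in pacSC against plpSC. There 5 of 5 passed without the 4 libraries that stood apart, and leaving out 1 library gave 0 to 5 members (5 without plpSC replicate 3). Leaving out 1 library gave 0 to 1 loci in all for elST against pacSC, 0 to 2101 for pacSC against plpSC, 19 to 46 for plpSC against priSG-B and 11 to 15 for priSG-B against priSG-A. In the same order of comparisons, no filter gave 1, 2, 93 and 68 loci, and leaving out the 4 libraries gave 2, 2847, 440 and 407. For plpSC against priSG-B the count was 6 with a pseudocount of 0.1, 18 with a filter of 5 FPKM, 23 with the 6 libraries and 29 with a term for AY036118 (19 higher, 10 lower). For priSG-B against priSG-A these counts were 1, 10, 158 and 98 (13 higher, 85 lower). With the replicate block no member passed in any comparison, and 0, 0, 40 and 25 loci did. Outside pacSC against plpSC, libraries with the same number correlated at -0.58 to 0.19 in their deviations. The labels pair no libraries in any comparison.

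Signs turned in 3 comparisons. For elST against pacSC the differences without the 4 libraries were 1.78 (4930571K23Rik), 1.03 (1700016P04Rik), 1.97 (Gm10501), 0.94 (1700095K22Rik) and 2.09 (Wbscr25). Leaving out 1 library there gave -3.83 to 0.27 for 4930571K23Rik, -3.84 to 0.015 for 1700016P04Rik, -2.96 to 0.40 for Gm10501, -3.66 to 0.050 for 1700095K22Rik and -3.42 to 0.37 for Wbscr25. For plpSC against priSG-B the AY036118 term gave -0.19 (Gm10501) and -0.74 (Wbscr25), and leaving out the 4 libraries gave -0.061 (4930571K23Rik) and -0.081 (1700016P04Rik). Leaving out 1 library there gave -0.061 to 4.34 for 4930571K23Rik and -0.081 to 3.904 for 1700016P04Rik. For priSG-B against priSG-A the AY036118 term gave 0.89 (4930571K23Rik), 0.024 (1700016P04Rik), 1.69 (Gm10501) and 2.33 (Wbscr25), and leaving out the 4 libraries gave 0.077 (4930571K23Rik), 0.081 (1700016P04Rik) and 0.097 (1700095K22Rik). Leaving out 1 library there gave -1.68 to 0.077 for 4930571K23Rik, -1.21 to 0.081 for 1700016P04Rik and -1.33 to 0.097 for 1700095K22Rik. The cause was not tested. Depth limits the 282-base 1700095K22Rik most, since 3 fragments equal 0.677 to 3.31 FPKM there.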
